A study of Mus musculus with 6 samples.

Results

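The genes described here encode the extracellular matrix of the retina: collagens, laminins and the proteins that are assembled with them. They were all genes with a probe set named for 1 gene only whose symbol is that of a collagen chain or a laminin chain, together with 20 matrix genes listed one by one. This gave 71 genes with 145 probe sets among 18193 genes in all: 42 collagen chains, 10 laminin chains and 19 of the listed genes. The remaining listed gene, Fbn1, had no probe set under its own name in the annotation used and was not analysed here. Each gene was read at its brightest probe set, the one with the highest mean over the arrays.

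Retinal RNA came from prCAD -/- mice, which are knockouts for photoreceptor cadherin (gene symbol Cdhr1), and from wild type mice of strain 129. The mice were 4 weeks old and the retinas of 3 mice were pooled for each array, with 3 arrays per genotype. The sources used here do not name the strain of the knockout mice, and genotype and strain therefore cannot be told apart. Values are log2 expression from single-colour Affymetrix arrays, in which 1 unit is a doubling. The labels say no more about the pools. A p-value on group alone sets the difference against the spread between pools of a genotype, which may be technical. Where the replicate number is added to the fit, the difference is set against how far the differences of same-numbered arrays lay apart.

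Basement membranes lie within and along the retina. They include the inner limiting membrane, at the end feet of the Müller glia, and the sheaths of the retinal vessels. Others are the basement membrane layers of Bruch's membrane, beneath the pigment epithelium. All are built from type IV collagen and laminin networks that nidogens and heparan sulfate proteoglycans link together. Fibrillar collagens are sparse in the neural retina itself and common in sclera, choroid and vitreous, and type II and type IX collagens are the main collagens of the vitreous. Matricellular proteins do not build the scaffold but bind to it and to cells, and many of them are made by glia and vessels under stress.

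The label of the mutant arrays and the tissue were checked first. Cdhr1 lay between 10.98 and 11.36 in the wild type arrays and between 3.94 and 4.34 in the mutant arrays. All 9 rod marker genes that were measured lay above the overall median of 4.76. This median is used below as a working level under which background may limit a difference, and no background level was estimated here. Array medians ran from 4.74 to 4.79, and the number of arrays limits the precision of every value. Over all 45037 probe sets 5 passed the test on group alone (limma, adjusted p under 0.05), which is 0.0111%, and 15 passed when the replicate number was added as a block, which is 0.0333%. Same-numbered arrays deviated together, so calls over all probe sets are given for both fits. Single differences carry the SE on group alone, and the SE with the block is added for a few genes only. Wild type replicate 3 stood apart: it was the lowest of the 6 arrays for 32.4% of all genes and for 34 of the 71 matrix genes (47.9%). Its summed level of 9 measured lens markers was 10377, against 18010 to 29106 in the other 5 arrays. Mutant replicate 3 also stood apart, with the highest array median, 4.79. Its mean correlation with the other arrays of its group was 0.977, the lowest of the 6 arrays. The value was 0.980 for wild type replicate 3 and lay between 0.982 and 0.987 for the remaining arrays.

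Of the 71 matrix genes, 2 rose in mutant retina. Lad1, a basement membrane gene, passed the test on group alone, as did 3 of all 18193 genes at their brightest probe set (0.0165%) and 4 probe sets that were higher in mutant retina (0.00888%). Pcolce, a gene of collagen processing, passed only with the replicate block, with which 8 of all genes (0.044%) and 12 higher probe sets (0.0266%) passed. Both are among the genes listed one by one, which were chosen with earlier results of these data known. The shares over all genes are therefore given for scale and do not test the set. The bases directly upstream of these 2 genes are shown because they are the members whose difference passed a test. They are RefSeq sequence of GRCm38.p6, written 5′ to 3′ on the strand of the gene, and end at the last base before the gene's outermost RefSeq start: chr1:135818348-135818597 on the plus strand for Lad1 and chr5:137611523-137611654 on the minus strand for Pcolce. Capitals mark matches to the searched motifs.
Lad1: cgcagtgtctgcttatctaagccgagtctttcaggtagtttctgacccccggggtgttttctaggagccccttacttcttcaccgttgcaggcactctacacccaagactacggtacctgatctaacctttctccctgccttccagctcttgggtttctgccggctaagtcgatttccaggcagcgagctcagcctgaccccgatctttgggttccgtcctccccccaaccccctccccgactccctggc
Pcolce: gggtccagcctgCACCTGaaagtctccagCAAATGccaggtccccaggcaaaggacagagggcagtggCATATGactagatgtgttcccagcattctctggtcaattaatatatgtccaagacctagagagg

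Both strands were searched for the TATA box (TATAAA), the CCAAT box, the GC box (GGGCGG), the AP-1 site (TGANTCA), the STAT site (TTCNNNGAA), the E-box (CANNTG) and the site of the photoreceptor factors OTX2 and CRX (TAATCC). The Pcolce stretch of 132 bases held 3 E-boxes. Of 32851 promoter windows, cut to the same length from their upstream end, 44.9% held at least 1. The cut windows need not reach the gene start as the Pcolce stretch does, so the share compares unlike positions. None of the other letters occurred in the Pcolce stretch. The Lad1 stretch of 250 bases held none of these motifs, including the E-box that 66.2% of windows of that length held and the STAT letters that 7.02% held. These letter matches describe the windows only, and windows were at hand for 50 of the 71 genes.

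Lad1 encodes ladinin, an anchoring filament protein of basement membranes. It read 5.24, 5.32 and 5.15 in wild type replicates 1 to 3 and 6.58, 6.50 and 6.42 in the mutant replicates. The groups did not overlap, and the arrays of each group lay close together. It rose by 1.26 (SE 0.09), which is 2.40-fold, from 5.24 ± 0.09 to 6.50 ± 0.08 (SD, n = 3 each; limma, adjusted p = 0.0269, and 0.0212 with the replicate block). Within the pairs of same-numbered arrays the differences were 1.34, 1.17 and 1.27. Lad1 has 1 probe set. The difference stayed between 1.22 and 1.30 when any 1 array was left out, but the call was lost in 5 of these 6 fits, where limma's adjusted p was 0.360, 0.185 and 0.110 on leaving out wild type replicates 1, 2 and 3 in turn, and 0.249 and 0.331 on leaving out mutant replicates 1 and 2. It was 0.0491 on leaving out mutant replicate 3.

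Pcolce encodes the procollagen C-endopeptidase enhancer, a secreted protein that speeds the removal of the C-terminal propeptides of fibrillar procollagens by the protease of Bmp1. It read 5.69, 5.58 and 4.89 in the wild type replicates and 7.64, 6.99 and 6.73 in the mutant replicates. Every mutant array lay at least 1 unit above every wild type array, and replicate 3 was the lowest in both groups. The difference was 1.74 (SE 0.29), which is 3.33-fold, from 5.39 ± 0.43 to 7.12 ± 0.46 (SD, n = 3 each). It did not pass on group alone (limma, adjusted p = 0.513) and passed with the replicate block (SE 0.12, adjusted p = 0.0242). The differences within the pairs were 1.95, 1.42 and 1.85.

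A second, dimmer probe set of Pcolce gave the same picture. It read 5.01, 5.18 and 4.67 in wild type and 6.60, 6.34 and 5.91 in mutant retina, again without overlap. The difference there was 1.33 (SE 0.21; limma, adjusted p = 0.447, and 0.0411 with the replicate block). The paralogue Pcolce2, which encodes a related enhancer, differed by 0.14 (SE 0.17) and its groups overlapped. Without wild type replicate 3 the Pcolce difference was 1.49 (SE 0.26), and without both arrays of replicate 3 it was 1.68 (SE 0.21; limma, adjusted p = 0.110).

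**Figure D1:**
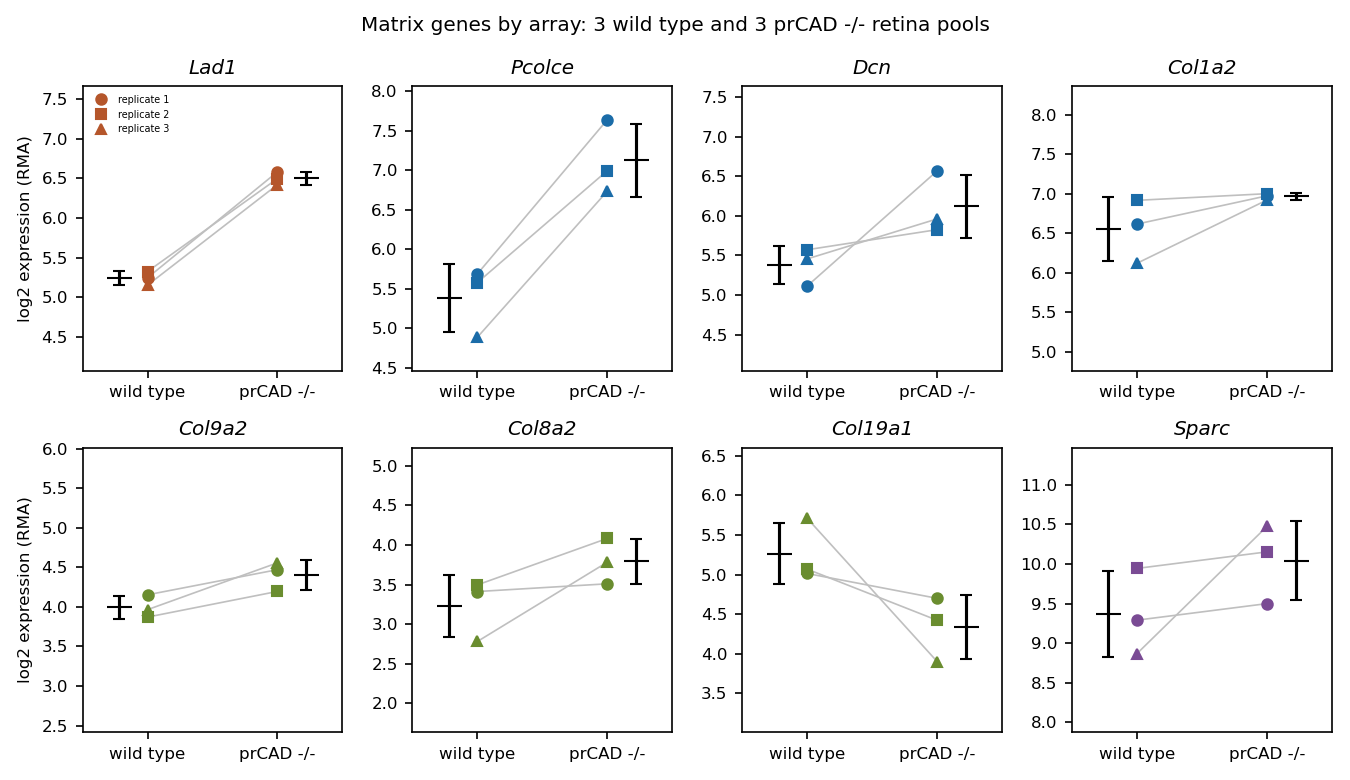
Log2 expression of 8 matrix genes in each array, with wild type on the left and prCAD -/- on the right of each panel, 1 symbol per replicate number, grey lines joining same-numbered arrays and black bars giving the mean ± SD of 3 arrays; every panel spans the same number of log2 units. Lad1 and Pcolce separate fully, Dcn, Col1a2, Col9a2, Col8a2 and Col19a1 separate by less, and Sparc overlaps between the groups.

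Over the whole set, 52 of 71 genes lay higher in mutant retina (73.2%), against 58.4% of all 18193 genes. The median log2 difference was 0.12, and 0.02 over all genes. On group alone 6 members had an unadjusted p under 0.05 (5 higher, 1 lower), which is 8.45%, where 3.42% of all genes did. With the replicate block 11 members did (8 higher, 3 lower), where 7.44% of all genes did. In 11 members every mutant array lay above every wild type array, which is 15.5%, against 5.89% of all genes. In 3 members, Col19a1, Col4a3 and Lama3, every mutant array lay below, which is 4.23%, against 2.88%. Without wild type replicate 3 the count of members higher in mutant retina was 42 (59.2%) and their median difference 0.05, where 49.4% of all genes lay higher and the median over all genes was -0.002. Without both arrays of replicate 3 the count was 46 (64.8%), where 59.7% of all genes lay higher.

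**Figure D2:**
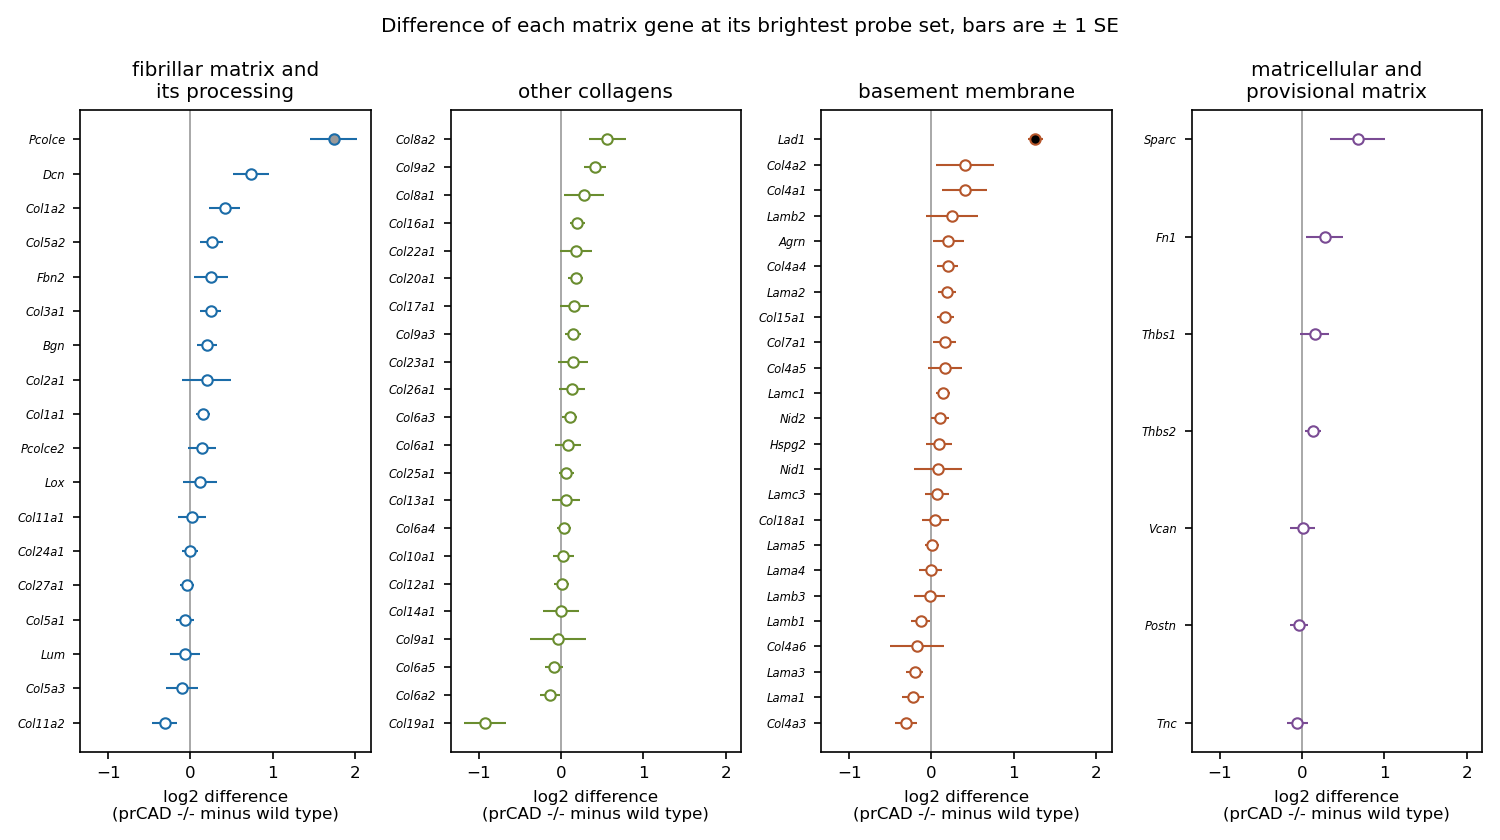
Log2 difference (prCAD -/- minus wild type) of each of the 71 matrix genes at its brightest probe set, in 4 classes, with bars of ± 1 SE from limma on 3 against 3 arrays; the black point passed over all probe sets on group alone, the grey point passed with the replicate block, and open points did not pass. Lad1 and Pcolce lie farthest to the right, Col19a1 at -0.92 lies farthest to the left, and most other genes lie within 0.4 of 0.

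The class of fibrillar matrix and its processing held 18 genes. On group alone 0 passed over all probe sets, and 1, Pcolce, passed with the replicate block. An unadjusted p under 0.05 on group alone was found for 2 (11.1%, against 3.42% of all genes). The median difference of the class was 0.15, with 12 higher (66.7%, against 58.4% of all genes) and 6 lower. Within the pairs the medians were 0.16, 0.02 and 0.12. The 11 chains of fibrillar collagens themselves had a median difference of 0.02, with 6 higher and 5 lower.

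Dcn encodes decorin, a small proteoglycan that binds collagen fibrils and spaces them. It read 5.11, 5.57 and 5.46 in wild type and 6.57, 5.83 and 5.96 in mutant retina, so that the groups did not overlap and mutant replicate 1 was the highest. Its difference was 0.74 (SE 0.22), or 1.67-fold, and did not pass over all probe sets on group alone or with the block. Without mutant replicate 1 it was 0.51 (SE 0.16). At the other probe set of Dcn, which lies below 4.76 in every array, the difference was -0.02 (SE 0.08). Of the related proteoglycans, Bgn (biglycan) differed by 0.20 (SE 0.12) and Lum (lumican) by -0.07 (SE 0.18).

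Type I collagen, the main collagen of sclera and of vessel walls, has chains encoded by Col1a1 and Col1a2. Col1a2 read 6.62, 6.92 and 6.12 in wild type and 6.97, 7.001 and 6.92 in mutant retina. The groups met without overlapping, and wild type replicate 3 was the lowest array. The difference was 0.41 (SE 0.19), and it was 0.42 (SE 0.18) at another probe set and 0.05 (SE 0.09) at the remaining one, which both lay below 4.76 in every array. Without wild type replicate 3 it was 0.20 (SE 0.12) at the brightest probe set. Col1a1 lay below the overall median in all arrays, at 3.65 ± 0.03 in wild type and 3.80 ± 0.03 in mutant retina (SD, n = 3 each), a difference of 0.15 (SE 0.08), and its other probe set differed by -0.01 (SE 0.09). Col3a1, the chain of type III collagen, also lay below it and differed by 0.24 (SE 0.13).

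Col2a1, the chain of type II collagen in the vitreous, read 6.73, 6.996 and 7.95 in wild type and 7.50, 7.43 and 7.33 in mutant retina. Here wild type replicate 3 was the highest array, and the groups overlapped. The difference was 0.20 (SE 0.29), and without wild type replicate 3 it was 0.56 (SE 0.12), which did not pass over all probe sets. Col11a2, a chain of type XI collagen that copolymerises with type II, differed by -0.31 (SE 0.15), and its partner chain Col11a1 by 0.02 (SE 0.17). Lox, the enzyme that cross-links collagen and elastin, and the fibrillin gene Fbn2 lay below the overall median in both groups and differed by 0.12 (SE 0.21) and 0.25 (SE 0.20). Of the 11 genes of this class not chosen by the rule for named genes, the differences ran from -0.10 (Col5a3) to 0.26 (Col5a2).

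The other collagens, which form networks, beaded filaments or associate with fibrils, or span the membrane, numbered 22. None passed over all probe sets on group alone or with the replicate block. On group alone 3 had an unadjusted p under 0.05 (13.6%, against 3.42% of all genes). The median difference of the class was 0.10, with 18 higher (81.8%, against 58.4% of all genes) and 4 lower.

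Col19a1 was the member with the largest lower value in mutant retina. It encodes the chain of type XIX collagen, a rare collagen of basement membrane zones. It read 5.01, 5.07 and 5.71 in wild type and 4.70, 4.42 and 3.90 in mutant retina. The groups did not overlap, and the third pair was farthest apart, with wild type replicate 3 the highest and mutant replicate 3 the lowest of all arrays. The difference was -0.92 (SE 0.26), or 1.90-fold lower, and did not pass over all probe sets. Within the pairs it was -0.31, -0.65 and -1.81, and without both arrays of replicate 3 it was -0.48 (SE 0.12). The 2 dimmer probe sets of Col19a1 differed by -0.26 (SE 0.13) and -0.13 (SE 0.18), and both lay below 4.76 in all arrays. The mutant level and these probe sets may therefore be limited by background.

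Type IX collagen decorates type II fibrils. Col9a2 read 4.15, 3.87 and 3.96 in wild type and 4.47, 4.20 and 4.56 in mutant retina, below the overall median in all arrays. The groups did not overlap, and the difference was 0.41 (SE 0.13). Its partner Col9a1, a chain of the same trimer, read 8.13, 8.59 and 7.35 against 7.53, 8.38 and 8.05. These groups overlapped fully, at a difference of -0.03 (SE 0.34). Col9a3, the third chain, differed by 0.15 (SE 0.09).

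Col8a2 encodes a chain of the network-forming type VIII collagen of the corneal and vascular endothelium. It read 3.41, 3.50 and 2.78 in wild type and 3.51, 4.08 and 3.78 in mutant retina. The groups met between wild type replicate 2 and mutant replicate 1 without overlapping, and all values lay below 4.76. The difference was 0.56 (SE 0.23), and 0.34 (SE 0.18) without wild type replicate 3. Its partner chain Col8a1 differed by 0.28 (SE 0.24, and 0.08 with the replicate block), higher in all 3 pairs, by 0.20, 0.26 and 0.38. Col16a1, a fibril-associated collagen, read 5.64, 5.65 and 5.48 against 5.84, 5.72 and 5.81 and differed by 0.20 (SE 0.09). The 5 measured chains of type VI collagen, which forms beaded filaments around cells, had a median difference of 0.03 and none was without overlap between the groups. Of the 17 genes of this class not chosen by the rule, the differences ran from -0.14 (Col6a2) to 0.28 (Col8a1).

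The basement membrane class held 24 genes, of which Lad1 rose and 23 did not pass on group alone or with the replicate block. An unadjusted p under 0.05 on group alone was found for 1, Lad1 (4.17%, near the 3.42% of all genes). The median difference of the class was 0.10, with 17 higher (70.8%, against 58.4% of all genes) and 7 lower. Within the pairs the medians were 0.06, -0.08 and 0.21. Without wild type replicate 3 the median was 0.03.

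Type IV collagen forms the sheet of every basement membrane. Col4a1 and Col4a2 encode the chains of its most widespread form. Col4a1 read 7.52, 8.28 and 7.36 in wild type and 7.84, 8.01 and 8.51 in mutant retina. Col4a2 read 7.12, 7.70 and 6.39 in wild type and 7.01, 7.60 and 7.82 in mutant retina. For both genes wild type replicate 3 was the lowest and mutant replicate 3 the highest array, and the groups overlapped. The differences were 0.40 (SE 0.27) and 0.40 (SE 0.35), and without both arrays of replicate 3 they were 0.03 (SE 0.24) and -0.11 (SE 0.25).

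The chains of the other type IV networks did not pass either. Col4a3, a chain of the mature network of the glomerulus and of parts of the eye, read 5.90, 5.91 and 6.27 in wild type and 5.87, 5.61 and 5.69 in mutant retina. Each mutant array lay below each wild type array, by little in the first pair, and the difference was -0.31 (SE 0.13). A second probe set of Col4a3 differed by -0.15 (SE 0.19). Its partner chains Col4a4 and Col4a5 differed by 0.20 (SE 0.13) and 0.16 (SE 0.21), and Col4a6 by -0.18 (SE 0.33).

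Laminins are trimers of an alpha, a beta and a gamma chain. The 10 measured chains had a median difference of 0.00, with 5 higher and 5 lower. Of these chains 0 had an unadjusted p under 0.05 on group alone or with the block, where 3.42% and 7.44% of all genes did. Lamc1, the gamma chain of most laminins, read 5.54, 5.44 and 5.42 in wild type and 5.64, 5.54 and 5.65 in mutant retina, a difference of 0.14 (SE 0.09). Lamb2, the beta chain of the inner limiting membrane and of the matrix around photoreceptors, read 5.37, 5.30 and 4.67 against 5.96, 5.35 and 4.77. Replicate 3 was low in both groups for Lamb2. The difference of 0.25 (SE 0.32, and 0.12 with the replicate block) was therefore smaller than the spread between arrays of a group.

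Among the alpha chains, Lama1 differed by -0.22 (SE 0.14), Lama2 by 0.18 (SE 0.11) and Lama3 by -0.20 (SE 0.10). Lama3 read 4.71, 4.94 and 4.69 against 4.50, 4.64 and 4.60, without overlap, and its dimmer probe set differed the other way, by 0.09 (SE 0.14). Nid1, the nidogen that bridges laminin and type IV collagen, read 6.02, 6.80 and 5.77 in wild type and 5.95, 6.22 and 6.65 in mutant retina. The groups overlapped fully at a difference of 0.08 (SE 0.29), and without both arrays of replicate 3 it was -0.32 (SE 0.25). The proteoglycan genes Hspg2 (perlecan) and Agrn (agrin) differed by 0.09 (SE 0.16) and 0.20 (SE 0.19). The 14 genes of this class not chosen by the rule ran from -0.18 (Col4a6) to 0.20 (Agrn).

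**Figure D3:**
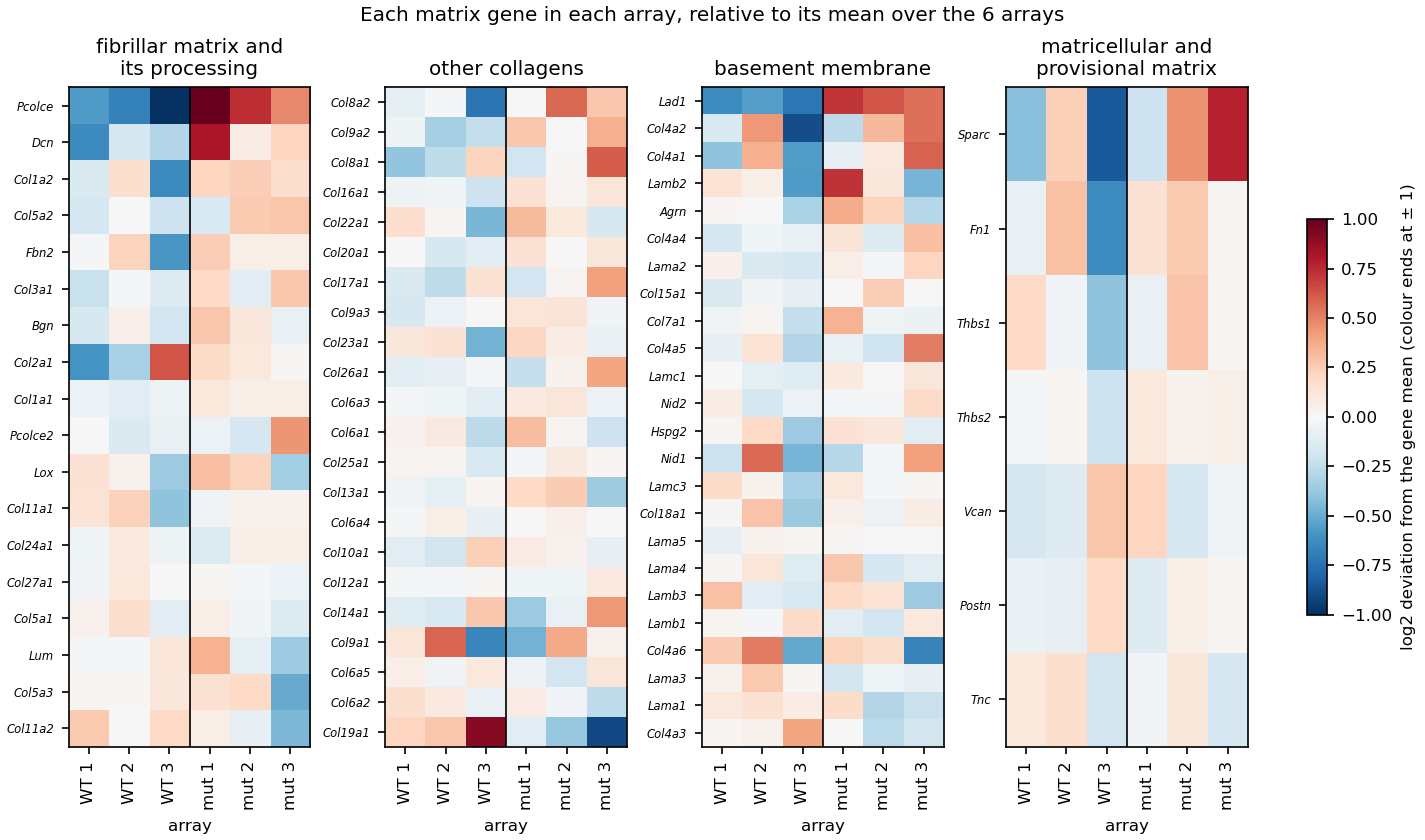
Deviation of each matrix gene in each array from its mean over the 6 arrays, in log2 units, with genes in rows by class, wild type (WT) and prCAD -/- (mut) arrays in columns, red above and blue below the gene's mean, and colour ending at ± 1. Lad1 and Pcolce change colour at the line between the groups, while Col4a1, Col4a2, Sparc and Nid1 are low in wild type replicate 3 and high in mutant replicate 3.

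The 7 matricellular and provisional matrix genes had a median difference of 0.13, and 0 passed on group alone or with the block. On group alone 0 had an unadjusted p under 0.05, where 3.42% of all genes did. With the block 1, Sparc, did, where 7.44% of all genes did. Sparc encodes the collagen-binding protein osteonectin. It read 9.29, 9.94 and 8.87 in wild type and 9.50, 10.15 and 10.48 in mutant retina. Mutant replicate 1 lay below wild type replicate 2, so the groups overlapped, although each mutant array was above its partner, by 0.21, 0.21 and 1.61. The difference was 0.68 (SE 0.33), and without both arrays of replicate 3 it was 0.21 (SE 0.28). Of its other probe sets 1 differed by 0.89 (SE 0.47) and the other by 0.04 (SE 0.12).

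Fn1 encodes fibronectin, a main protein of the matrix laid down after injury. It read 7.31, 7.68 and 6.76 in wild type and 7.53, 7.64 and 7.40 in mutant retina, with overlap. The difference was 0.27 (SE 0.22), and without wild type replicate 3 it was 0.03 (SE 0.15). Tnc, which encodes tenascin-C, a glycoprotein of remodelling matrix, read 5.19, 5.26 and 4.90 against 5.06, 5.20 and 4.92, a difference of -0.06 (SE 0.13). Thbs1 and Thbs2, the thrombospondin genes, lay mostly below the overall median and differed by 0.15 (SE 0.17) and 0.13 (SE 0.10). Postn (periostin) and Vcan (versican), the 2 genes of this class outside the rule, differed by -0.04 (SE 0.11) and 0.01 (SE 0.16). All 8 probe sets of Vcan lay between differences of -0.16 and 0.06.

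Genes that act on the matrix were read from 3 further lists, and 0 of their genes passed over all probe sets on group alone or with the replicate block. Of 20 measured genes for integrins and other matrix receptors, 15 lay higher (75%) and 5 had an unadjusted p under 0.05 (25%), all of them higher. The median difference was 0.15. Of all genes, 58.4% lay higher and 3.42% had an unadjusted p under 0.05. Itgb8, the beta chain of the integrin that activates latent TGF-beta, read 5.96, 5.84 and 5.30 in wild type and 6.54, 6.46 and 6.43 in mutant retina. The groups did not overlap, and the difference was 0.78 (SE 0.18; limma, adjusted p = 0.261 with the replicate block). Itgav, its alpha chain partner, read 8.03, 7.86 and 7.66 against 8.35, 8.13 and 8.24, also without overlap, at a difference of 0.39 (SE 0.12). Itgb1, the beta chain shared by most laminin and collagen receptors, differed by 0.10 (SE 0.15) and was named after its value was seen.

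Of 16 measured genes for collagen modification and cross-linking 13 lay higher (81.2%, against 58.4% of all genes), with a median difference of 0.15. An unadjusted p under 0.05 was found for 3 (18.8%, against 3.42% of all genes). Loxl3, a lysyl oxidase, differed by 0.35 (SE 0.10). Bmp1, the procollagen C-proteinase that the product of Pcolce enhances, differed by 0.40 (SE 0.16, and 0.09 with the replicate block). Bmp1 read 6.31, 6.51 and 5.995 in wild type and 6.82, 6.73 and 6.45 in mutant retina, with overlap through mutant replicate 3. Of 23 measured matrix proteases and inhibitors 14 lay higher (60.9%, near the 58.4% of all genes), with a median difference of 0.06. An unadjusted p under 0.05 was found for 1 (4.35%, near the 3.42% of all genes). This was Adamts1, a protease that cleaves versican, which read 5.81, 5.86 and 5.99 in wild type and 6.55, 6.46 and 6.72 in mutant retina. Its groups did not overlap, and the difference was 0.69 (SE 0.11; limma, adjusted p = 0.447, and 0.0979 with the block). Timp3, an inhibitor held in Bruch's membrane, differed by 0.43 (SE 0.20).

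**Figure D4:**
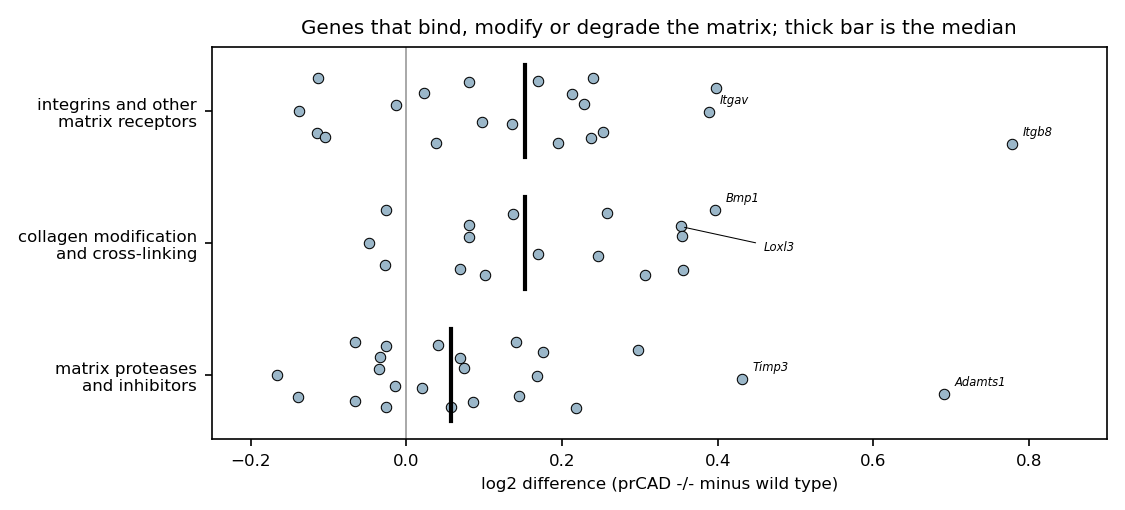
Log2 difference (prCAD -/- minus wild type) of 20 genes of integrins and other matrix receptors, 16 of collagen modification and cross-linking and 23 of matrix proteases and inhibitors, 1 point per gene at its brightest probe set, spread vertically for legibility, with the median as a thick bar and the 2 genes of smallest p named in each list. Itgb8 at 0.78 and Adamts1 at 0.69 lie farthest to the right, and the list medians are 0.15, 0.15 and 0.06.

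Markers of tissues that carry their own matrix differed between the groups to unequal degrees. The 10 markers of the pigment epithelium, which lies on Bruch's membrane, had a median difference of 0.90, with 9 higher (90%, against 58.4% of all genes). The summed level of these markers on the linear scale ran from 760 to 1625 in wild type and from 1939 to 2775 in mutant arrays. It did not overlap and was lowest in wild type replicate 3. In 8 of the 10 (80%) every mutant array lay above every wild type array, against 5.89% of all genes. Leaving out the list's gene of largest difference, Ttr (2.27, SE 0.78), a choice made after its values were seen, the summed levels were 708 to 1189 and 1068 to 1631 and overlapped. These sums still hold Rlbp1, the 1 lower gene of the list, which is also on the list of Müller glia markers. Rlbp1 is bright, at 9.12, 9.15 and 8.33 in wild type and 9.03, 9.14 and 8.23 in mutant retina. It differed by -0.07 (SE 0.31), and sums without it were not taken. The 9 lens markers had a median difference of 0.55 and a summed level of 10377 to 26035 in wild type and 19021 to 29106 in mutant arrays. The 10 markers of vascular endothelium (median difference -0.01, summed level 739 to 811 and 692 to 889), the 8 of pericytes and smooth muscle (0.14, 509 to 581 and 553 to 650) and the 10 of fibroblasts (0.03, 468 to 554 and 468 to 607) overlapped between the groups. Of these, 6 endothelial, 2 pericyte, 6 fibroblast and 1 pigment epithelium markers lay below the overall median. The part of these tissues in the differences of Pcolce, Lad1 and the other matrix genes was not tested, and in pooled tissue more cells of a type cannot be told apart from more RNA per cell.

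Markers of glia and immune cells were read in the same way. The summed level of 5 astrocyte markers ran from 511 to 532 in wild type and from 705 to 718 in mutant arrays, of 10 microglia and macrophage markers from 388 to 428 and from 510 to 573, and of 10 Müller glia markers from 5752 to 6931 and from 6540 to 6967. The first 2 of these did not overlap between the groups and the Müller glia markers did. The astrocyte and Müller glia lists share Slc1a3 and Aqp4, so their sums do not keep these cell types fully apart. Among the astrocyte markers, whose median difference was 0.15, Gfap differed by 1.60 (SE 0.32) and S100b by -0.08 (SE 0.15). Leaving out Gfap, again the gene of largest difference, the astrocyte sums were 424 to 490 and 488 to 558 and overlapped. Leaving out Ctss in the same way, the microglia and macrophage sums were 315 to 343 and 379 to 429 and did not. The 8 markers of ciliary body and iris had a median difference of 0.08 and summed levels of 350 to 416 and 380 to 427, and the 9 rod markers a median difference of -0.19 and summed levels of 31566 to 37309 and 32123 to 35422. Their part in the differences of the matrix genes was not tested either.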

How the data were processed

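The deposited log2 values were made by the authors with RMA, which corrects background, normalizes the arrays to a common distribution and summarises probes per probe set, per the submitters' processing notes. The sources used here name no version. RMA removes differences in total signal between arrays before any test. Of 45101 probe sets, 64 manufacturer controls were left out, which leaves 45037. Platform annotation gave 34945 probe sets 1 gene symbol, 932 several and 9160 none.

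The test was limma 3.58.1 (lmFit and eBayes, R 4.3.3) on group alone, with p-values adjusted by Benjamini-Hochberg across the 45037 and called under 0.05. SE are of this fit unless given beside a value with the block. After the group means were taken off, wild type and mutant arrays of replicates 1, 2 and 3 correlated at 0.477, 0.469 and 0.563, all past the limit of 0.1, and the best partner of all 6 arrays had the same number. Pairing was therefore accepted; it comes from the data, not from the labels.

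The members, classes and lists were chosen with earlier results of these data known. Named genes were Cdhr1, members past the threshold in either fit, the 4 members of smallest p per class, a fixed set of main matrix genes and the 2 genes of smallest p per further list. Other members are named to complete a family and were chosen after their values were seen. Figures were drawn with matplotlib 3.10.9.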

Additional observations from a re-analysis of the deposited data

How the results depend on the processing

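Alternatives were the replicate block, a filter on dim probe sets, further quantile normalization, median centring, a trended and robust variance, array weights, a gene's probe sets averaged, and leaving out each array or both arrays of replicate 3. The number of matrix genes that passed was 2 with the replicate block, 0 to 1 without single arrays, and 1, Lad1, in each of the others. Over all probe sets 15 passed with the replicate block, 25 with array weights, 16 without both arrays of replicate 3 and 2 to 9 without single arrays. The replicate block changed no call of a named gene other than that of Pcolce. With the filter, which also left out the named genes under the overall median, 43 matrix genes remained and 33 lay higher in mutant retina, the count being smaller because fewer genes were tested. The median difference of the matrix genes ran from 0.05 to 0.14 without single arrays and was 0.07 without both arrays of replicate 3. Named differences turned sign in 3 fits other than those without single arrays: Col4a2 without both arrays of replicate 3 (-0.11), and Nid1 with array weights (-0.19) and without both arrays of replicate 3 (-0.32). Without single arrays the differences ran from -0.052 to 0.56 for Col2a1, from -0.37 to 0.25 for Col9a1, from -0.14 to 0.38 for Nid1, from -0.052 to 0.54 for Lamb2, from -0.0093 to 0.29 for Thbs1 and from -0.16 to 0.013 for Tnc. The cause was not tested. The 3 arrays per group limit what can be seen. For 27 genes below the overall median in both groups, background may limit it too.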
